A study of Homo sapiens with 2 samples.

Results

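The 39 HOX genes of the 4 human HOX clusters were compared between SAS cells and eSAS cells. Their probes were the spots of the array, controls left out, whose gene name was HOXA, HOXB, HOXC or HOXD followed by the number of the gene. This gave 52 probes, each spotted once, for 39 of the 30484 gene and transcript names on the array, with 11 genes in HOXA, 10 in HOXB, 9 in HOXC and 9 in HOXD. A single probe measured each of 28 genes, and 11 genes had several.

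SAS is a cell line from a human squamous carcinoma of the tongue. The eSAS cells are the population left after 5 rounds in which the large spheroids of SAS cells were caught on the membrane of a tool called Spheroid Catch. Both populations carry the same label for tissue, and the study took their RNA in the log phase of growth. RNA of each was labelled with Cy3 and hybridised to 1 one-colour array. With 1 array per population there was no replicate and no test, and precision is limited by having so few arrays. The eSAS cells are 1 selected population of 1 line, so that selection and time in culture cannot be told apart.

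HOX genes encode transcription factors with a homeodomain that bind DNA, often together with PBX and MEIS proteins, and set the identity of segments along the body axis. Within a cluster the genes lie in the order in which they are used from head to tail, and genes of the same number in different clusters are paralogues. Many adult epithelia and the tumours that arise from them keep a part of this expression, held on or off by the Trithorax and Polycomb complexes.

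The promoters of 3 HOX genes are shown because 2 of the genes, HOXA13 and HOXD8, were among those with the widest differences between the arrays, and HOXD4 was not well above background on either array. Each is the 250 bases before the RefSeq start of the gene, 5′ to 3′ on the strand of the gene (build GRCh38.p14), with the dinucleotide CG in capitals. HOXA13 lies at chr7:27200092-27200341 on the minus strand, HOXD8 at chr2:176129455-176129704 on the plus strand and HOXD4 at chr2:176151300-176151549 on the plus strand.
HOXA13: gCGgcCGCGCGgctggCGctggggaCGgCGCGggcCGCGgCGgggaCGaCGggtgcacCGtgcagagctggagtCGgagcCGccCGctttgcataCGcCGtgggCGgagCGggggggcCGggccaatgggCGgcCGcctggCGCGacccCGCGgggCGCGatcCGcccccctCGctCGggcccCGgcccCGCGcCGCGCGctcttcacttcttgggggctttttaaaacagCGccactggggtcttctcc
HOXD8: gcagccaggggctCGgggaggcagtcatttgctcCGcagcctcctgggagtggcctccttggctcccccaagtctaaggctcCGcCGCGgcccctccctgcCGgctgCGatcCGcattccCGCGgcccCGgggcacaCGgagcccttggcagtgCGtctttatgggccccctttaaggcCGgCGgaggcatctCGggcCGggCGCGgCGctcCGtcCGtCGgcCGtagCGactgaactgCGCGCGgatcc
HOXD4: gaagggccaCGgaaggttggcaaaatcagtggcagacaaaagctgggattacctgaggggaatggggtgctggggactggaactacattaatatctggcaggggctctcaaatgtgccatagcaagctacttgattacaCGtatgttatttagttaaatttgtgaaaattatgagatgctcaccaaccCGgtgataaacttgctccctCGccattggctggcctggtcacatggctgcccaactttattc
The HOXA13 window held 40 CG dinucleotides, and 2.16% of all 35116 promoters of this length held as many. The HOXD8 window held 28 (15.9% of promoters held as many) and the HOXD4 window 4 (70.7%), beside a median of 11 over all promoters. The motif TATAAA, searched on both strands, was in none of these 3 windows and in 10.72% of all promoters. The counts overlapped between detected and undetected genes. Windows of the other detected genes held from 0 (a HOXA3 window) to 31 (HOXD1), with 8 for HOXA2. Those of HOXD12, HOXC4 and HOXB1, which were not detected, held 16, 14 and 7. Promoters were matched for 20 of the 39 HOX genes, which is too few for any statement on the genes as a set.

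A signal is the background-subtracted intensity of a spot in the units of the scanner, and a probe was well above background where the scanning software marked it so. The log2 ratio compares eSAS with SAS after each array was divided by the 75th percentile of its non-control spots, 1242 in SAS and 1196 in eSAS. The error given with a log2 ratio is that of the software's model of single spots. It does not hold the spread between cultures.

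Most of the HOX genes were detected, and the same genes in both populations. Of the 52 HOX probes, 38 (73.1%) were well above background in SAS and 37 (71.2%) in eSAS, beside 68.6% and 66.7% of all 41000 probes. By gene, 30 of 39 were detected on each array, and these were the same 30. All 4 clusters were represented, with 10 genes detected in HOXA, 7 of 10 in HOXB, 6 of 9 in HOXC and 7 of 9 in HOXD. The detected genes were 7 of 12 in paralogue groups 1 to 4, 10 of 11 in groups 5 to 8 and 13 of 16 in groups 9 to 13. The share by gene over the whole array was not counted, and differences between these groups were not tested. Every gene of groups 3, 5, 6, 7, 9, 10 and 13 was detected, and neither gene of group 12. Among the genes not detected on either array were HOXB1, HOXB2, HOXB8, HOXC4, HOXC11, HOXC12, HOXD4 and HOXD12. In bulk RNA, fewer cells with a transcript and less of it per cell cannot be told apart.

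**Figure D1:**
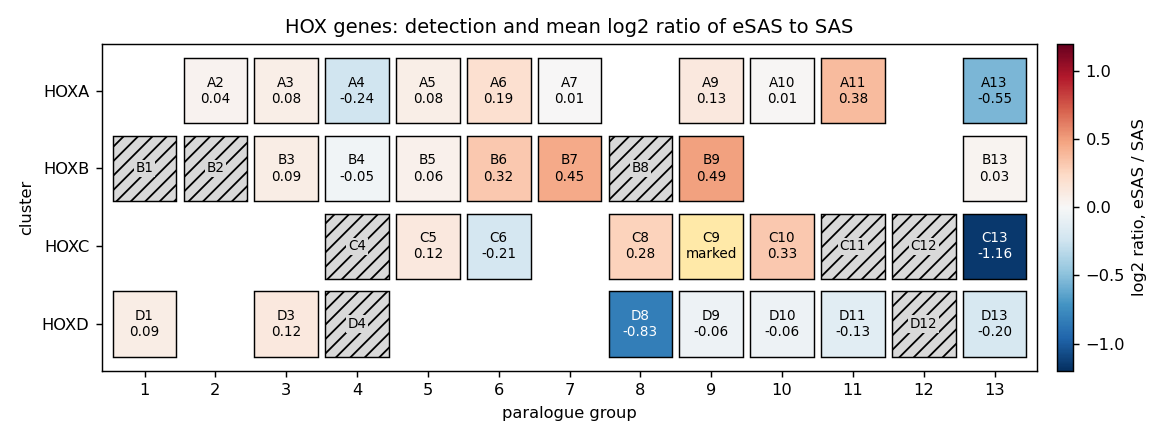
Each box is 1 HOX gene, placed by cluster (rows) and paralogue group (columns), and its colour and number give the mean log2 ratio of eSAS to SAS over its detected probes. Hatched boxes are genes not well above background on either array, and the box of HOXC9 has no ratio because its SAS spot was marked as non-uniform. The darkest blue boxes are HOXC13, HOXD8 and HOXA13.

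The dim probes had no ratio. Not well above background on either array, 13 HOX probes gave signals of 2.83 to 14.97 in SAS and 3.34 to 12.96 in eSAS. The lowest signal that any probe well above background had was 12.8 in SAS and 15.2 in eSAS. The software sets the mark spot by spot, and in SAS these ranges overlap. One HOXB3 probe was detected in SAS alone, at 20.6 against 5.64, which bounds the difference at no less than 1.30-fold, while the detected probe of the same gene gave 96.1 and 98.5 (log2 ratio 0.09). HOXB6, HOXB7 and HOXB13 each had 1 detected and 1 dim probe as well.

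Over the 4 clusters, most HOX genes of eSAS lay close to those of SAS, and their spread was near that of the whole array. Among the 29 genes with a ratio, 19 lay above 0 and 10 below, with a median log2 ratio of 0.06 and an SD over genes of 0.35. With no scaling between the arrays the split was 15 above and 14 below, with a median of 0.0045. Over all 19476 genes and transcripts with a ratio, the median was -0.0012 and the SD 0.37. The median size of the log2 ratio was 0.13 for HOX genes and 0.14 for all. The median by cluster was 0.06 for HOXA, 0.09 for HOXB, 0.12 for HOXC and -0.06 for HOXD, where 5 of 7 genes lay below 0. No HOX probe was at least 1.5-fold higher in eSAS, beside 4.46% of all 28267 probes compared. Of 37 HOX probes, 3 (8.11%) were at least 1.5-fold lower, beside 6.16% of all probes, and 1 (2.70%) was at least 2-fold lower, beside 1.98%. Both shares lie near those of the whole array. None of the 37 was at least 2-fold higher, beside 1.84%.

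**Figure D2:**
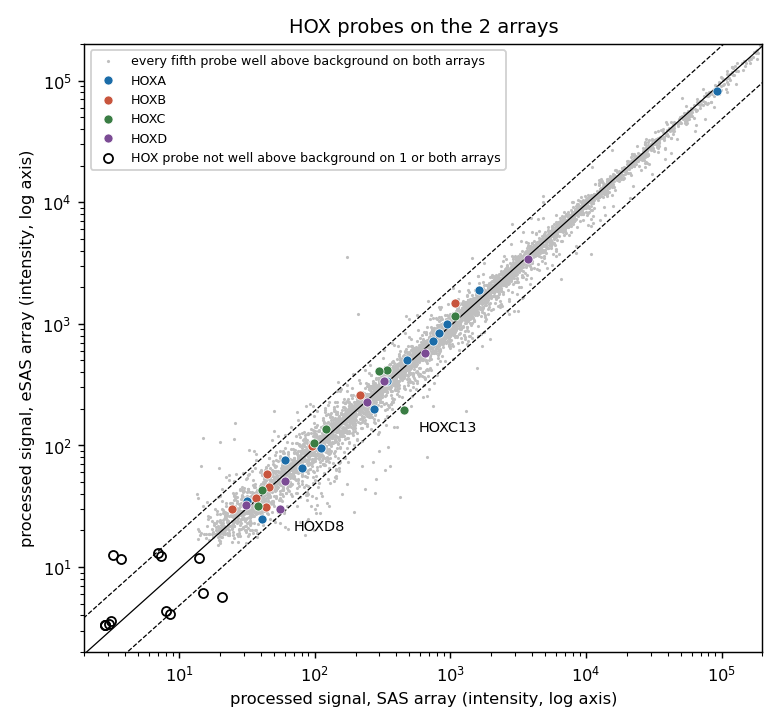
Processed signal in SAS (horizontal) against eSAS (vertical), both on log axes. Coloured points are HOX probes by cluster, open circles HOX probes not well above background on 1 or both arrays, and grey points a regular sample of all probes detected on both arrays. The solid line marks equal scaled signal and the dashed lines a 2-fold difference. The HOX probes lie along the solid line, with HOXC13 beyond the lower dashed line.

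HOXC13, a group 13 gene known for its part in hair and nail keratins, had the largest difference of any HOX gene. Its probe (chr12:52626301-52626360 in the hg18 positions of the array, plus strand) gave 454 in SAS and 196 in eSAS, which was 2.23-fold lower in eSAS (log2 ratio -1.16, error 0.21). The scanned pixels showed the same order before any subtraction, with a mean of 533 in SAS and 258 in eSAS over local backgrounds of 23 and 27.5. For probes that the array carries in several spots, at this brightness, the log2 ratio varied between spots of a probe by an SD of 0.06. That SD holds the spread between spots of this pair of arrays, and not that between cultures or hybridisations. Among all probes of this brightness, 1.02% were at least 2-fold lower in eSAS. Its 8 adjacent spots had a median log2 ratio of 0.01, with a range of -0.78 to 0.27. Around the HOXD8 probe and the 2 HOXA13 probes, which are given below, the medians were -0.02, 0.01 and 0.01.

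HOXD8 was the next largest difference. Its single probe (chr2:176704355-176704414, hg18, plus strand) gave 55.1 in SAS and 29.8 in eSAS, or 1.78-fold lower (log2 ratio -0.83, error 0.30). At this brightness replicate spots varied by an SD of 0.23, and 8.03% of all probes were at least 1.5-fold lower. The other detected HOXD genes from group 9 upward were closer between the arrays. HOXD9 gave 244 and 226 (-0.06), HOXD10, a gene of the hindlimb motor neurons, 3727 and 3442 (-0.06), and HOXD11 655 and 575 (-0.13). HOXD13, which patterns digits, gave 60.6 and 50.9 (-0.20). All 5 of these genes were on the low side in eSAS, and HOXD1 (31.3 and 32.2) and HOXD3 (322 and 338) were not. Only HOXD8 differed by more than the software's error. That error was 0.21 for HOXD9, 0.20 for HOXD10 and HOXD11 and 0.24 for HOXD13, and HOXD1 and HOXD3 also lay within theirs.

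HOXA13, a gene of the limb tip and hindgut, had 2 probes, both lower in eSAS. The first (chr7:27204420-27204479, hg18, minus strand) gave 41.2 and 24.7 (log2 ratio -0.68, error 0.33), and the second (chr7:27203199-27203258) gave 275 and 200 (-0.41, error 0.21). The gene's mean was -0.55, a 1.46-fold difference, and only the first probe was past 1.5-fold. HOXB13, a gene of the prostate, gave 45.9 and 45.2 (log2 ratio 0.03). The group 13 genes had a median log2 ratio of -0.37, and 3 of 4 lay below 0, with HOXD13 (-0.20) within its error of 0.24. Groups 4 and 8 also had medians below 0 (-0.15 and -0.28), and the other groups with a ratio had medians above 0. The ratios of HOXC13, HOXD8 and HOXA13 depended on how background was treated. With no background correction the log2 ratio was -0.99 for HOXC13, -0.28 for HOXD8 and -0.27 for HOXA13, so that none of them reached 2-fold and HOXC13 alone 1.5-fold. With normexp, another correction, on all spots, the median of all genes went to 0.68 and the 3 genes to 0.39, 2.53 and 1.80. Relative to that median HOXC13 was still lower (-0.29), and HOXD8 (1.85) and HOXA13 (1.12) were higher. With normexp on spots without marked local background, the median of all genes was -0.007. There the 3 genes stood at -0.97, -0.26 and -0.26.

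Among the HOXA genes other than HOXA13 the arrays differed by less. HOXA3, a gene of the pharyngeal arches, gave 91860 and 81871 at one probe (-0.11) and 1635 and 1901 at the other (0.27). HOXA9, which is known from leukaemia, gave 938 and 989 (0.13). HOXA5, needed for the lung, gave 827 and 840 (0.08) and HOXA7 743 and 719 (0.01). In these genes the arrays lay within the software's error, except for the second HOXA3 probe. HOXA2, which shapes the second pharyngeal arch, gave 341 and 339, HOXA4 80.3 and 65.3 (-0.24) and HOXA6 31.9 and 35.0 (0.19). HOXA11, a gene of the forearm and uterus, was the highest of its cluster in eSAS over SAS, at 60.2 and 75.6 (0.38). HOXA10 gave 332 and 339, and 477 and 502, at its probes on chromosome 7. A further probe named HOXA10 on the array lies on chromosome 12 (chr12:52709820-52709879, hg18), between the HOXC6 and HOXC5 probes, and gave 111 and 94.6 (-0.18).

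**Figure D3:**
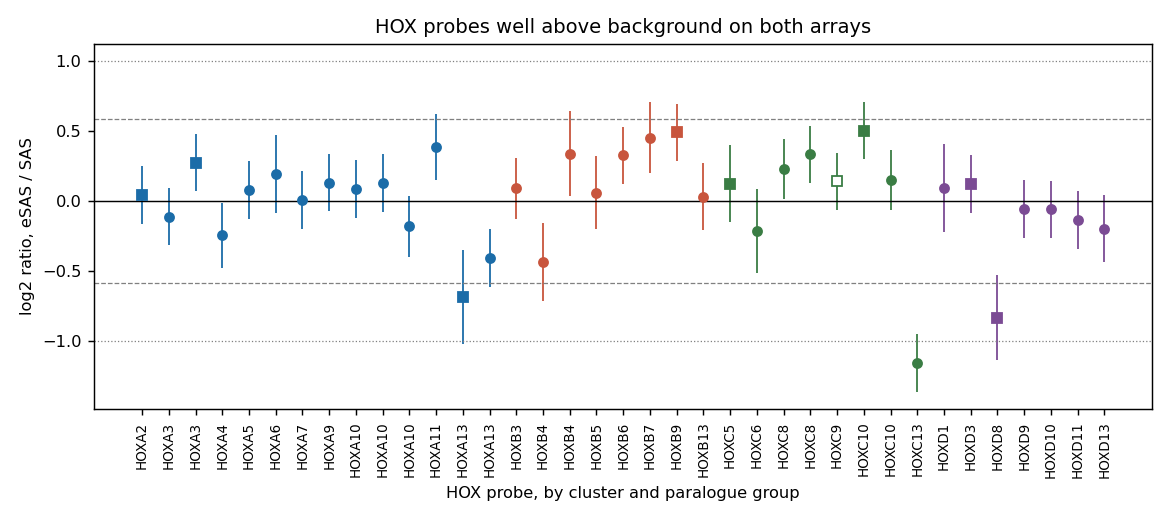
The log2 ratio of eSAS to SAS for each HOX probe well above background on both arrays, in order of cluster and paralogue group, with bars for the software's error of the ratio. Dashed lines mark 1.5-fold and dotted lines 2-fold, squares mark spots in rows 450 to 510 of the array, and the open square is the marked HOXC9 spot. HOXC13 lies below the lower dotted line, and HOXD8 and 1 HOXA13 probe lie between the lower lines.

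By gene mean the highest log2 ratios were those of HOXB9, HOXB7 and HOXA11, and no HOX gene reached 1.5-fold higher in eSAS. HOXB9, a gene of the thoracic skeleton, gave 1089 in SAS and 1472 in eSAS (log2 ratio 0.49, error 0.21). HOXB7 gave 44.4 and 58.4 (0.45) at its detected probe and HOXB6 215 and 259 (0.32). The 2 probes of HOXB4, which expands blood stem cells, disagreed in sign, with 43.9 and 31.4 (-0.43) at one and 24.6 and 29.9 (0.34) at the other. HOXB5 gave 36.9 and 37.0 (0.06). In HOXC, a probe of HOXC10, a gene of the lumbar region, gave 298 and 407 (0.50) and the other 98.6 and 105 (0.15). HOXC8 gave 121 and 137 (0.23), and 342 and 415 (0.33). HOXC5 gave 40.8 and 42.8, and HOXC6 38.2 and 31.8 (-0.21). HOXC9 gave 1090 and 1156 (0.14), with its SAS spot marked as non-uniform. Of the 36 unmarked probes, 21 differed by less than the software's error and 5 by more than 2 errors, which were HOXC13, HOXD8, HOXB9, HOXC10 and a HOXA13 probe.

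The software marked 194 spots of SAS as non-uniform, and 183 of them lay in rows 450 to 510. This band held 11 of the 52 HOX probes, among them HOXD8, the first HOXA13 probe, HOXB9 and the HOXC10 probe with the ratio of 0.50. Of 8 unmarked HOX probes with a ratio in the band, 25.0% were at least 1.5-fold apart, beside 3.57% of 28 outside it. For all probes the shares were 7.66% and 7.998%. HOXC13 and the second HOXA13 probe lay outside the band, and the part of the band in the HOXD8 value was not tested.

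Other transcripts of the clusters were read at 25 probes within 20 kb of a HOX probe span, most of them with no current gene name and 18 on the opposite strand. The span of 20 kb was chosen after values were seen. Of these, 21 were detected on both arrays, with a median log2 ratio of -0.01. None was at least 1.5-fold higher in eSAS, beside 3.09% of all 26659 probes detected on both arrays. At least 1.5-fold lower were 3 (14.3%), beside 4.89%. A transcript named THC2701797 on the array gave 285 in SAS and 73.4 in eSAS (log2 ratio -1.90, error 0.21), and its probe lies 10649 bases from that of HOXC13 (chr12:52615593-52615652, hg18, minus strand). The array describes it as a partial match to homeoprotein C13 but places it on the strand opposite to that of HOXC13. Whether it is separate from HOXC13 was not tested. FLJ41747, nearest to the HOXC12 probe, gave 37.7 and 22.8 (-0.67, error 0.36), with mean pixels of 78.4 and 70.3 before any subtraction. BC031342, nearest to HOXA2, gave 642 and 404 (-0.61, error 0.20). At this end of HOXC, from FLJ41747 through HOXC13 to THC2701797, the 3 detected probes were lower in eSAS, FLJ41747 at signals near the background. Of these probes, 2 carry C13 in their name or description. HOXA11S, an antisense transcript of HOXA11, gave 633 and 678 (0.15), and PRAC, a small gene beside HOXB13 that is known from the prostate, gave 1371 and 1356 (0.04).

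**Figure D4:**
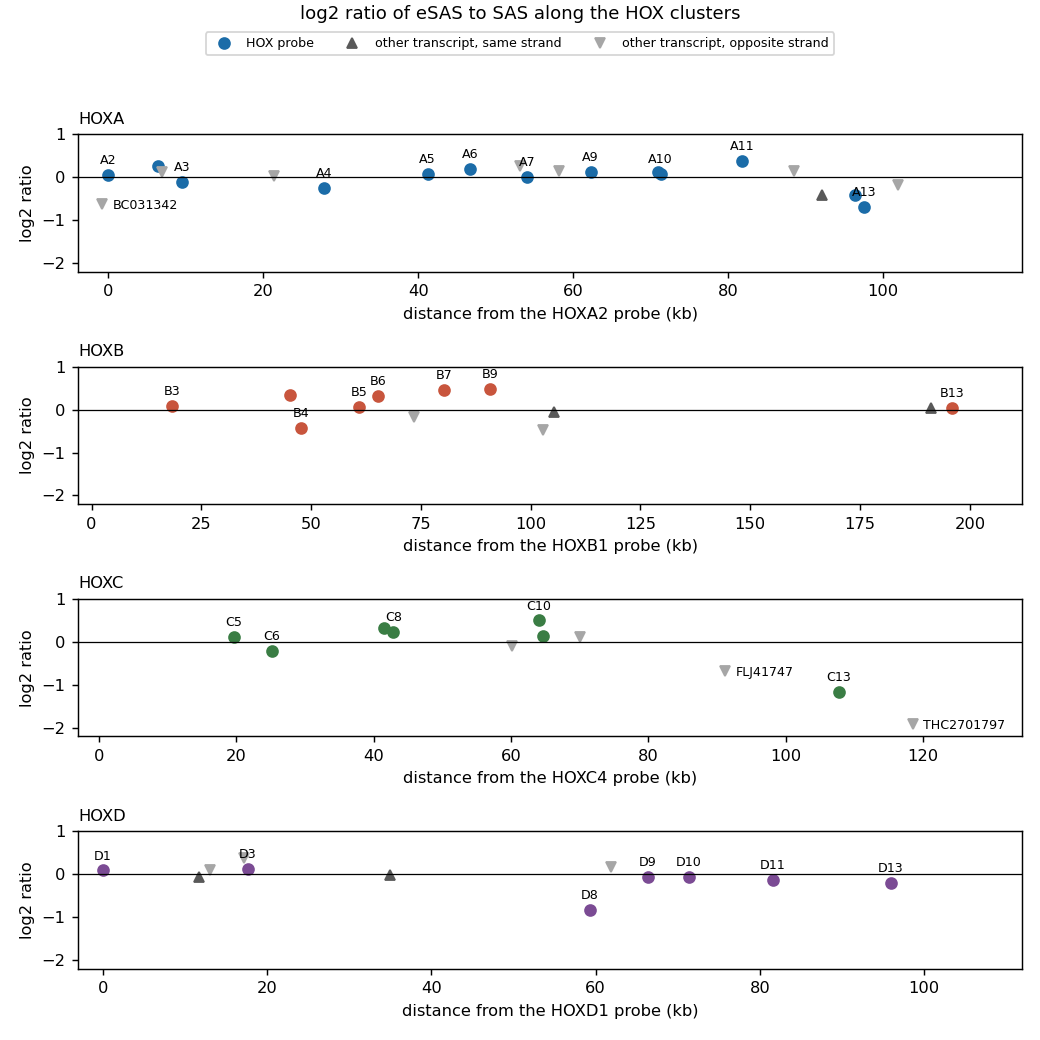
The log2 ratio of eSAS to SAS (vertical) against distance in kb from the probe named under each panel (horizontal), 1 panel per cluster. Circles are HOX probes, upward triangles other transcripts on the strand of the cluster and downward triangles those on the opposite strand. In HOXC the 3 points at the far end lie below 0, with HOXC13 at -1.16 and THC2701797 at -1.90.

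The genes that act with or on HOX genes were mostly less than 1.5-fold apart. Over all probes, 68.6% were detected in SAS and 66.7% in eSAS. Of all probes compared, 6.16% were at least 1.5-fold lower and 4.46% at least 1.5-fold higher. Of those detected on both arrays, the shares were 4.89% and 3.09%. Genes are given by the mean of their probes detected on both arrays, and single probes that went another way are named. Of 10 PBX and MEIS cofactors, 8 were detected on each array, and PBX4 alone was at least 1.5-fold lower, with 63.9 in SAS and 31.6 in eSAS (-0.96). Of 21 genes of the Polycomb complexes, which keep HOX genes silent, 20 were detected with a median of 0.05, and PHC1 was lower (34.0 and 20.7, -0.66). All 11 Trithorax and MLL genes, which keep HOX genes active, were detected, with a median of 0.07 and none 1.5-fold apart by that mean. For KMT2D, a methyltransferase, one probe gave 176 and 198 (0.23), and the other was dim in SAS (3.83) and detected in eSAS (28.7), at least 2.32-fold higher. Retinoic acid is a known inducer of HOX genes. Of 15 genes of its receptors and enzymes, 11 were detected in SAS and 12 in eSAS. STRA6, the receptor for retinol uptake, was lower (41.8 and 22.8, -0.82). The probes of CYP26B1, which breaks retinoic acid down, disagreed, with 267 and 73.4 at one (-1.81) and 19.6 and 42.2 at the other (1.16). ALDH1A2, an enzyme of retinoic acid synthesis, had 2 probes. One was dim in SAS (2.70) and detected in eSAS (19.8), at least 1.60-fold higher, and the other was dim on both arrays (3.14 and 5.20). ALDH1A3, of the same family, gave 7985 and 6822 (-0.17) at one probe and 30.1 and 51.0 (0.82) at the other. Of 8 upstream factors, 5 were detected and CDX1, CDX2 and CDX4 were not. Of 12 other homeobox genes on the array, 7 were detected, and DLX4, which lies on the same chromosome as HOXB, was lower (115 and 44.5, -1.32). The genes that flank the clusters numbered 9, with 7 compared, a median of 0.08 and none 1.5-fold apart.

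The label of the cells was set against 9 epithelial markers, which were KRT5, KRT6A, KRT14, KRT17, TP63, DSG3, DSP, CDH1 and EPCAM. All 9 were detected on both arrays, with signals from 46.9 (KRT6A) to 40809 (EPCAM) in SAS. KRT14 and KRT5, keratins of basal cells, were at least 1.5-fold lower in eSAS, with log2 ratios of -3.90 (mean of 2 probes, -6.58 and -1.23) and -0.63. Of 6 fibroblast markers, COL1A1 (14.6) and THY1 (2667) were detected in SAS and THY1 (2556) in eSAS. Of 4 leukocyte markers, CD14 (215 in SAS and 233 in eSAS) and CD68 (717 and 752) were detected on both, and PTPRC and CD3E on neither. Of 3 endothelial markers, CDH5 and VWF were detected in SAS and VWF in eSAS.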

How the data were processed

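SAS and eSAS RNA samples were each hybridised to 1 array of the same slide (one-colour Agilent, 45015 spots). Agilent Feature Extraction 10.7.3.1, named in the submitters' processing notes, read the arrays, and the intensity values deposited by the authors (gProcessedSignal) are background-subtracted and not scaled between arrays. The deposited table of the series held the same values and served as an alternative.

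Positions (hg18) and HOX names were those of the array, and other names were updated through RefSeq where a match was found. Counts of fold differences and means and medians of ratios used no spot with the software's mark for uneven pixels or for an outlier among replicate spots, except in 1 alternative. Counts of detected probes and genes kept marked spots. Without marked spots, 29 HOX genes were detected on each array. The HOXC9 ratio, from a marked spot, is given as a single value only. log2 signals were centred on the 75th percentile of each array, probes of a gene were averaged, and eSAS was compared with SAS. A probe was called where it was at least 1.5-fold or 2-fold apart, and a probe dim on 1 array took the lowest signal well above background as its bound. Every HOX gene was to be accounted for, and those past 1.5-fold or with several probes were given by probe. The HOX genes and all companion lists were chosen with earlier results of these data known. With 1 array per population no test was made. Scripts used Python 3.11.15, pandas 2.3.3, numpy 2.4.6 and matplotlib 3.10.9, with R 4.3.3 and limma 3.58.1 for normexp and quantile normalization, and were tested on simulated data. Alternatives changed scaling, background correction and filters. Arrays give no read depth. The values of 1 item are not reported here.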

Additional observations from a re-analysis of the deposited data

How the results depend on the processing

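With no scaling, median centring, quantile normalization or a 75th percentile over detected probes, HOXC13 was at least 1.5-fold lower in eSAS, as it was with the deposited series table. The median HOX log2 ratio was 0.0045 with no scaling and 0.09 with median centring, and 0.06 above that of all genes in both. Background correction moved them more. With normexp (offset 50) on all spots, the median HOX log2 ratio went from 0.06 to 1.67 (1.69 with median pixels), the SD over genes from 0.35 to 1.02 (1.01), the probes 1.5-fold apart from 3 to 28 (28) and those 2-fold apart from 1 to 25 (25). The 3 genes past 1.5-fold at a probe took values above 0 there, HOXA13 to 1.80 (1.80), HOXC13 to 0.39 (0.38) and HOXD8 to 2.53 (2.52), while the median of all genes went to 0.68. Relative to that median HOXC13 stayed lower (-0.29, and -0.30 with median pixels). The cause was not tested. With normexp on spots without marked local background, or with no background correction, 1 probe was 1.5-fold apart and 0 were 2-fold apart, and HOXC13 stood at -0.97 and -0.99, HOXD8 at -0.26 and -0.28 and HOXA13 at -0.26 and -0.27. With no filter on dim probes, or the call of positive and significant in its place, 11 were 1.5-fold and 6 were 2-fold apart, with an SD of 0.61 and 0.54. Without rows 450 to 510, or with a signal of at least 100 on both arrays, 1 was 1.5-fold apart. HOXD8 has no value under these last 2. Leaving out probes detected on 1 array only or the HOXA10 probe on chromosome 12 was chosen after the data were seen. No paired analysis was possible because each population has 1 array. HOX probes with signals of 15 to 50 are near the background, where replicate spots varied by an SD of 0.23.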
